A study of Mus musculus with 27 samples.

Results

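The 9 genes described here encode catalytic subunits and partner proteins of NADPH oxidases and dual oxidases: Cyba, Nox1, Nox4, Noxo1, Noxa1, Duox1, Duox2, Duoxa1 and Duoxa2. They are 9 of the 22524 genes counted in each library, and all 9 were found by symbol. They were chosen by a rule that used their levels in the culture types and in the libraries labelled with and without tumour necrosis factor (TNF), so that those values are a description. The study sequenced RNA of jejunal organoids from male young adult mice (C57BL/6 in the study's methods, C57BL/6J elsewhere in it) of 3 facilities, 2 of them specific pathogen free (SPF; SR with cultures Z908, Z909 and Z910, and SE with Z911, Z912 and Z913) and 1 germ free (GF; Z917, Z918 and Z919). The mice of a facility were cohoused littermates, and 1 culture was grown from each mouse. From every culture there was 1 library whose label says untreated (medium exchanged) and 1 whose label says TNF (5 ng/ml, 8 h). Cells from 3 cultures of m-ICc12 cells, a single immortalised line of mouse small intestinal epithelium, were sequenced in such pairs too, and mouse embryonic fibroblasts (MEFs) gave 3 untreated libraries. The study calls the donor mice wild type and gives C57BL/6 for the MEFs. It describes epithelial cell lines as transformed, from carcinomas or through introduced oncogenes, so the m-ICc12 genotype is not taken as unaltered here.

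The names of the deposited data state the opposite treatment to the sample labels in all 12 pairs of libraries. The labels were followed, and each group is called by its label. An exchange within the pairs would turn the sign of the TNF comparisons and would put the other library of each pair into the comparisons of untreated cultures. Nfkbia, Tnfaip3, Nfkb2 and Relb, which are classical NF-kappaB targets induced by TNF, had their lower levels under the TNF label in every case, with log2 differences from −2.66 to −1.49 in organoids and from −2.13 to −1.09 in m-ICc12 cells, and all 4 passed the test in both, or only Nfkbia in m-ICc12 cells with the culture as a block. These targets go against the labels, so every direction below belongs to the libraries as labelled.

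NADPH oxidases pass electrons from NADPH across a membrane to oxygen. Nox1 is the catalytic subunit found in colonic and other epithelia. It works with p22phox (encoded by Cyba), the organiser Noxo1, the activator Noxa1 and the GTPase Rac1. Nox4 also binds p22phox, but needs no organiser or activator and is known from kidney, vessels and fibroblasts. The dual oxidases Duox1 and Duox2 carry an additional peroxidase-like domain, release hydrogen peroxide at the apical surface, and need the maturation factors Duoxa1 and Duoxa2 to leave the endoplasmic reticulum. In the intestine Duox2 and Nox1 are known as sources of oxidants in host defence.

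Both dual oxidases and their maturation factors lie side by side on chromosome 2 (GRCm38). Duox2 (2:122279247-122298449, minus strand) and Duoxa2 (2:122298900-122302885, plus strand) are transcribed away from each other from starts 450 bases apart, and Duoxa1 (2:122302191-122313730, minus strand) and Duox1 (2:122315672-122347972, plus strand) from starts 1941 bases apart. Duoxa2 and Duoxa1 overlap by 695 bases at their ends. Cyba lies on chromosome 8 (8:122424776-122432930, minus strand), Nox1 on the X chromosome (X:134086421-134221956, minus strand), Nox4 on chromosome 7 (7:87246096-87398710, plus strand), Noxo1 on chromosome 17 (17:24696234-24700529, plus strand) and Noxa1 on chromosome 2 (2:25085667-25095149, minus strand). Cyba overlaps Gm20388, Noxo1 overlaps Tbl3, Noxa1 overlaps Entpd8, and Nox1 overlaps Cstf2, Xkrx and Arl13a, all but Xkrx on the opposite strand. Whether the counting used the strand is not given in the sources used here, so reads of overlapping parts could have gone to either gene.

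The 250 bases before the RefSeq start (GRCm38.p6) are shown for 3 members whose windows hold no annotated exon: Cyba and Nox1, which differed most between the labelled treatments, and Duoxa2, whose start faces that of Duox2. They are written 5′ to 3′ on the strand of the gene, with matches to the motifs searched in capitals. The Cyba window is chr8:122432941-122433190 (minus strand), the Nox1 window chrX:134111855-134112104 (minus strand, within an intron of longer Nox1 transcripts) and the Duoxa2 window chr2:122298650-122298899 (plus strand).
Cyba: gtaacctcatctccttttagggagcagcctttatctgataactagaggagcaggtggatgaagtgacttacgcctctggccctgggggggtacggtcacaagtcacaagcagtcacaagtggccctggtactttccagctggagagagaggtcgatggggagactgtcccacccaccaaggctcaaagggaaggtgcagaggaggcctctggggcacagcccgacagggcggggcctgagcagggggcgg
Nox1: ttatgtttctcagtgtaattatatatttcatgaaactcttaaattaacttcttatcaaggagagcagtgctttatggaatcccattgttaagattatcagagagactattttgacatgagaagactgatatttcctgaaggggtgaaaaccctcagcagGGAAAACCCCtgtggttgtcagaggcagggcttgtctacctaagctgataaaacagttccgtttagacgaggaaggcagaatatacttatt
Duoxa2: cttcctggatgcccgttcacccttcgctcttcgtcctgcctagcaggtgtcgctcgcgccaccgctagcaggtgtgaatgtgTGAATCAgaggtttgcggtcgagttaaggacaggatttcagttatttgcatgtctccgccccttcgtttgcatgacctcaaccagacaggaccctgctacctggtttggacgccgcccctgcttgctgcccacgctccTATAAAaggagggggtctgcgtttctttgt

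These windows were searched on both strands for the NF-kappaB consensus, for the STAT motif TTCNNNGAA, for the AP-1 motif TGANTCA and for TATAAA, and no match of 1 motif overlapped a match of another. TTCNNNGAA and TGANTCA read the same on both strands, so that each such match counts once here. The Cyba window held none of the 4 motifs, the Nox1 window held 1 NF-kappaB match 91 to 82 bases before the start, and the Duoxa2 window held an AP-1 match 168 to 162 bases and TATAAA 30 to 25 bases before the start. Among 32851 RefSeq promoters, 7.25% held the NF-kappaB consensus, 7.02% the STAT motif, 6.75% the AP-1 motif and 12.4% TATAAA in the same 250 bases. Of the other members, Noxa1 held an NF-kappaB match and Nox4 a STAT match, while Noxo1, Duox1, Duox2 and Duoxa1 held none. A match describes these letters and not a bound site.

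Sequencing depth was between 6071103 and 43843615 counts per library (median 30339856), so that 3 counts, used as the detection floor, correspond to between 0.0684 and 0.494 CPM (counts scaled to library size). Levels are given as CPM after normalisation by trimmed means of M-values (TMM). The library of m-ICc12 culture 1 labelled TNF-treated stood apart, with the lowest total and 13.455% of its counts on Lars2, and that of culture 3 labelled TNF-treated had 4.438%, against at most 0.688% in the other 25 libraries. The organoids carried the epithelial markers Epcam, Cdh1, Vil1, Krt8 and Krt18 at a summed 4830 to 5680 CPM, while m-ICc12 cells had high Krt8 and Krt18 but Epcam of only 2.05 to 6.74 CPM and Cdh1 of only 0.929 to 1.79 CPM. The 6 leukocyte markers summed to 74.3 to 124 CPM in m-ICc12 cells labelled untreated. Of these, Csf1r gave 64.1 to 106 CPM, Cd68 6.86 to 17.5 CPM and Ptprc 0.289 to 1.5 CPM, and Adgre1, Itgam and Cd3e had 0 counts. The 5 fibroblast markers summed to 3220 to 4250 CPM in MEFs, but Thy1 had 0 counts in all 27 libraries.

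Cyba was the most abundant member per exon length in organoid libraries labelled untreated, but not in those labelled TNF-treated. In the 9 organoid libraries labelled untreated, Cyba was at 90.7, 95.9, 110, 116, 121, 124, 127, 135 and 156 CPM, and in those labelled TNF-treated at 12.1, 13.3, 14.5, 16.6, 19.9, 20.1, 26.7, 26.8 and 28.1 CPM. The groups did not overlap, and the library labelled TNF-treated was lower in 9 of 9 cultures, with the ratio of untreated to TNF-labelled libraries within a culture between 3.59 and 9.61. Means were 119 ± 19.8 CPM and 19.8 ± 6.16 CPM (SD, n = 9 each), a log2 difference of −2.59 ± 0.16 (SE) in edgeR's quasi-likelihood fit. Gm20388, which overlaps it, was at 52.0 to 87.1 CPM in libraries labelled untreated and 64.4 to 89.3 CPM in those labelled TNF-treated, and its groups overlapped.

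Nox1 was low and variable between cultures. In libraries labelled untreated it was lowest in Z910 at 3.52 CPM, followed by Z919 at 6.80, Z909 at 10.5, Z913 at 13.1, Z918 at 14.7, Z912 at 16.6, Z908 at 18.1 and Z911 at 21.0 CPM, and it was highest in Z917 at 50.3 CPM. In libraries labelled TNF-treated it was at 3.03 CPM in Z917, 2.73 in Z911, 2.06 in Z908, 0.785 in Z913, 0.256 in Z912 and 0.0403 in Z910, and it had 0 counts in Z909, Z918 and Z919. Each labelled TNF library was below its partner, and the highest of them lay below the lowest of the untreated-labelled ones. Means were 17.2 ± 13.6 CPM and 0.989 ± 1.26 CPM (SD, n = 9 each), with a log2 difference of −4.20 ± 0.77 (SE). With the culture as a block, since the libraries of a culture come from the same mouse, the log2 difference was −5.10 ± 0.51 (SE).

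Noxo1, the organiser that holds the Nox1 complex at the membrane, was abundant in every organoid library. It was at 100, 103, 103, 117, 119, 125, 130, 137 and 157 CPM in the libraries labelled untreated, and at 44.2, 45.8, 52.9, 55.0, 59.3, 67.4, 67.4, 74.1 and 112 CPM in those labelled TNF-treated. The labelled TNF library was lower in 9 of 9 cultures, but the groups overlapped, because 1 library (Z911) labelled TNF-treated stood at 112 CPM. Means were 121 ± 18.4 and 64.2 ± 20.6 CPM (SD, n = 9 each), a log2 difference of −0.92 ± 0.14 (SE). Tbl3, which overlaps Noxo1, was at 38.5 to 82.2 CPM in libraries labelled untreated and 50.8 to 90.2 CPM in those labelled TNF-treated.

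Noxa1, the activator, was near the detection floor and had no common direction. It was between 0 and 4.06 CPM (median 0.317) in libraries labelled untreated and between 0 and 2.02 CPM (median 0.774) in those labelled TNF-treated, with 0 counts in 2 of 9 libraries of each group. It was lower in the labelled TNF library of 5 cultures and higher in 4, and the log2 difference was −0.59 ± 0.97 (SE), which lies within its error.

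**Figure D1:**
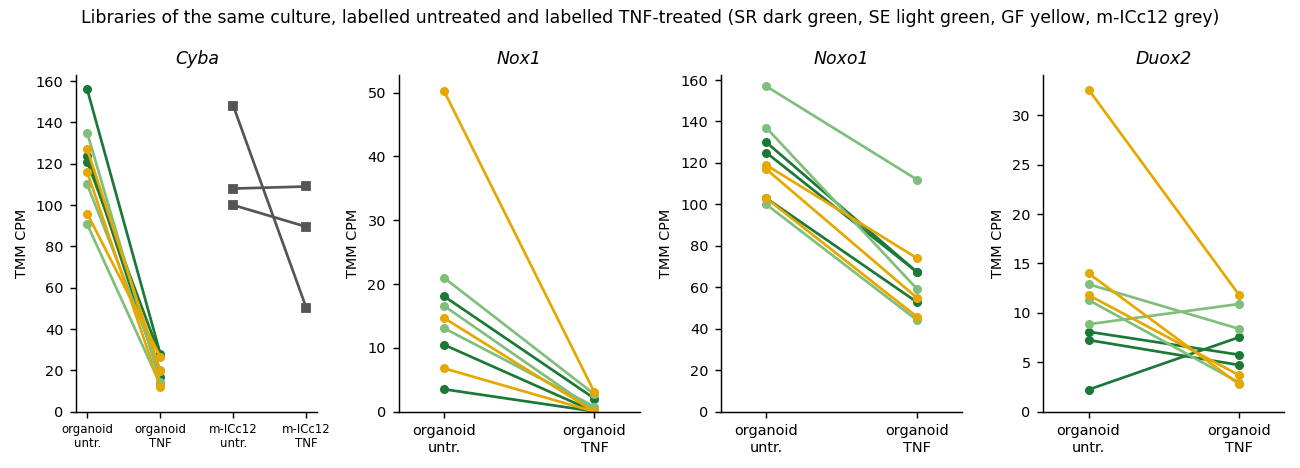
TMM CPM of Cyba, Nox1, Noxo1 and Duox2 in libraries labelled untreated (untr.) and TNF-treated (TNF), each line joining the 2 libraries of 1 culture and coloured by facility. All 9 organoid lines of Cyba, Nox1 and Noxo1 go down, those of Duox2 go down in 7 of 9 cultures, and the 3 m-ICc12 lines of Cyba differ in slope.

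Among the dual oxidases, Duox2 was the only one with counts of at least 10 in all 18 organoid libraries. In libraries labelled untreated it was at 2.23 CPM in Z910, 7.25 in Z909, 8.09 in Z908, 8.85 in Z911, 11.3 in Z912, 11.8 in Z918, 12.9 in Z913, 14.0 in Z919 and 32.6 in Z917. In libraries labelled TNF-treated it was at 2.76, 2.94, 3.69, 4.72, 5.76, 7.54, 8.38, 10.9 and 11.8 CPM. The groups overlapped, and the labelled TNF library was lower in 7 of 9 cultures, but higher in Z910 and Z911. Means were 12.1 ± 8.45 and 6.5 ± 3.37 CPM (SD, n = 9 each), a log2 difference of −0.91 ± 0.37 (SE).

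Duoxa2, the maturation factor of Duox2, was near the floor and had no common direction. It was between 0 and 2.25 CPM (median 0.357) in libraries labelled untreated and between 0.0911 and 1.46 CPM (median 0.473) in those labelled TNF-treated. It was lower in the labelled TNF library of 3 cultures and higher in 6, with a log2 difference of 0.20 ± 0.87 (SE). The other pair of the locus was almost silent in organoids: Duoxa1 had 0 counts in 17 of 18 libraries and Duox1 in 15 of 18. The exceptions were single libraries, with 13 counts of Duoxa1 in Z909 labelled TNF-treated, 14 counts of Duox1 in Z918 labelled untreated and 25 counts of Duox1 in Z908 and 1 count in Z910 labelled TNF-treated.

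Nox4, the constitutively active oxidase, had at most 3 counts in 17 of 18 organoid libraries. The exception was the library of Z908 labelled untreated, with 118 counts or 4.46 CPM, while its partner labelled TNF-treated had 0 counts. The same library also held 62 counts of Cybb (2.34 CPM), the catalytic subunit of phagocytes, which had 0 counts in the other 17 organoid libraries, and Csf1r at 5.90 CPM against at most 1.17 CPM in the 16 organoid libraries of other cultures. Cybb had 0 counts in m-ICc12 cells and MEFs, and Csf1r was at 64.1 to 106 CPM in m-ICc12 cells labelled untreated. Of the other leukocyte markers, Ptprc was at no more than 0.0397 CPM in organoid libraries labelled untreated, and Adgre1 and Cd3e had 0 counts. Itgam was at 0.267 to 9.75 CPM and Cd68 at 0 to 3.6 CPM in these libraries. The part of other cells or of another library in the Nox4, Cybb and Csf1r counts of Z908 was not tested.

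In the organoid comparison of labelled treatments, 6 of the 9 members were above background (at least 10 counts in 50% of the libraries of 1 group), and 3 of these (Cyba, Nox1 and Noxo1) were called at a Benjamini-Hochberg adjusted p under 0.05, all lower in libraries labelled TNF-treated. Of all 12104 genes tested in this comparison, 168 or 1.39% were called, 15 of them higher and 153 lower. The members were selected on this contrast, so that their share is not set against this background. Beside these values, the stem cell markers Olfm4 and Ascl2 were also lower in organoid libraries labelled TNF-treated (log2 differences −1.82 ± 0.29 and −1.70 ± 0.23, SE), whereas Lgr5 (0.06 ± 0.20) and Smoc2 (0.11 ± 0.10) were within their error. Of the 18 epithelial, enterocyte, Paneth and goblet cell markers, none was called by edgeR or DESeq2 and none had an unadjusted p under 0.05. With the culture as a block, Apoa1 (−0.49 ± 0.08), Sis (0.20 ± 0.04) and Fcgbp (0.15 ± 0.04, SE) were called. The part of the stem cell markers in the members' differences was not tested. In bulk RNA, fewer cells of a type and less RNA per cell cannot be told apart.

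**Figure D2:**
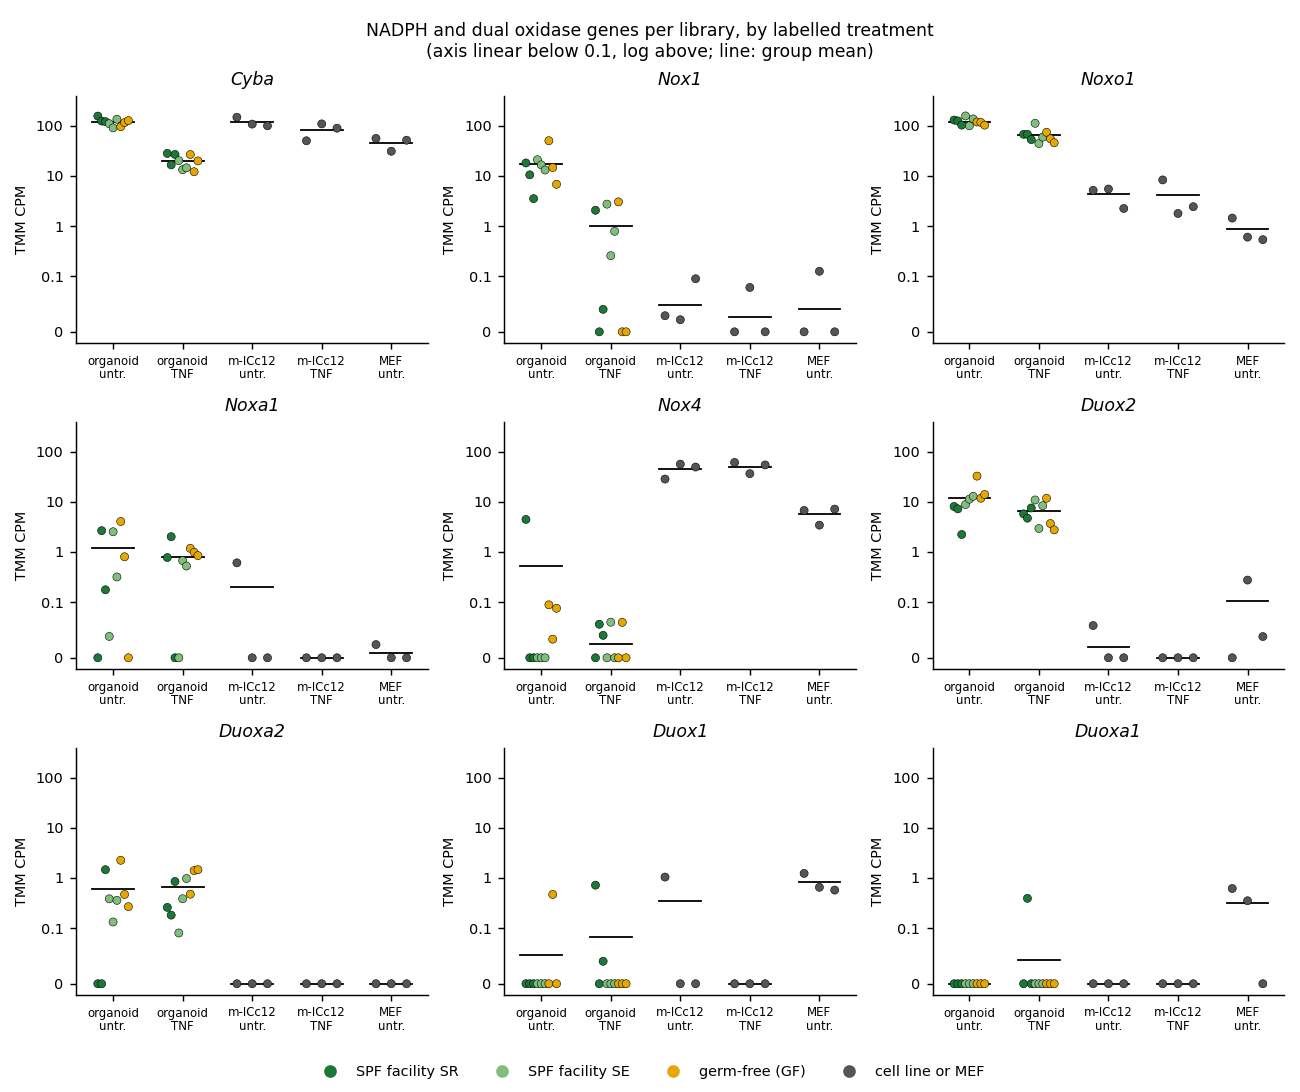
TMM CPM of each member in all 27 libraries, on an axis that is linear below 0.1 and logarithmic above, grouped by culture type and labelled treatment and coloured by facility, with lines at the group means. Cyba and Nox1 are separated between the organoid groups, Nox4 is high in m-ICc12 cells, and the Nox4 mean of organoids labelled untreated rests on 1 library.

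In m-ICc12 cells no member was called between the labelled treatments. Cyba was at 148, 108 and 100 CPM in cultures 1, 2 and 3 labelled untreated, and at 50.2, 109 and 89.5 CPM in the same cultures labelled TNF-treated. Culture 1 differed most, and its library labelled TNF-treated is the shallow one with a high share of Lars2. The log2 difference was −0.50 ± 0.24 (SE), and ranged from −0.79 without culture 2 over −0.67 without culture 3 to −0.06 without culture 1. Nox4 was at 28.5, 56.5 and 49.5 CPM labelled untreated and at 61.1, 36.5 and 54.5 CPM labelled TNF-treated, a log2 difference of 0.18 ± 0.26 (SE) with cultures on either side. Noxo1 was at 5.15, 5.47 and 2.24 CPM and at 8.31, 1.78 and 2.43 CPM (log2 difference −0.07 ± 0.70, SE). Of the 9 members, 3 were above background and 0 were called, with 0.11% of 11861 genes called in edgeR (13 genes, or 6 with the culture as a block); DESeq2 also called 0 members, and 0 members had an unadjusted p under 0.05. Whether the members respond differently in m-ICc12 cells and organoids was not tested.

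The members formed different sets in the 3 culture types, and these levels, too, were known to the rule. Per exon length, libraries of organoids labelled untreated ranked Cyba first at 115 ± 19.0 CPM per kb, then Noxo1 at 40.3 ± 6.10, Nox1 at 5.20 ± 4.11, Duox2 at 1.79 ± 1.25, Noxa1 at 0.727 ± 0.935 and Duoxa2 at 0.371 ± 0.479 CPM per kb (SD, n = 9). The ranges of Cyba and Noxo1 overlapped neither each other nor those of the genes below them, whereas Nox1, Duox2, Noxa1 and Duoxa2 each overlapped with their neighbours in this order. The order rests on the label: in organoid libraries labelled TNF-treated, Noxo1 came first at 21.3 ± 6.84, then Cyba at 19.0 ± 5.93, Duox2 at 0.961 ± 0.498, Noxa1 at 0.481 ± 0.381, Duoxa2 at 0.424 ± 0.326 and Nox1 at 0.299 ± 0.382 CPM per kb (SD, n = 9), and the ranges of Noxo1 and Cyba overlapped, as did those of Duox2 and the genes below it. In m-ICc12 cells the order was Cyba at 114 ± 24.4, Nox4 at 5.29 ± 1.72 and Noxo1 at 1.42 ± 0.591 CPM per kb, and in MEFs Cyba at 44.5 ± 12.8, Nox4 at 0.682 ± 0.242, Noxo1 at 0.285 ± 0.168, Duox1 at 0.155 ± 0.0683 and Duoxa1 at 0.0809 ± 0.0776 CPM per kb (SD, n = 3 each). Cyba, Nox4 and Noxo1 had separate ranges in m-ICc12 cells, while in MEFs only Cyba stood apart from the gene below it.

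**Figure D3:**
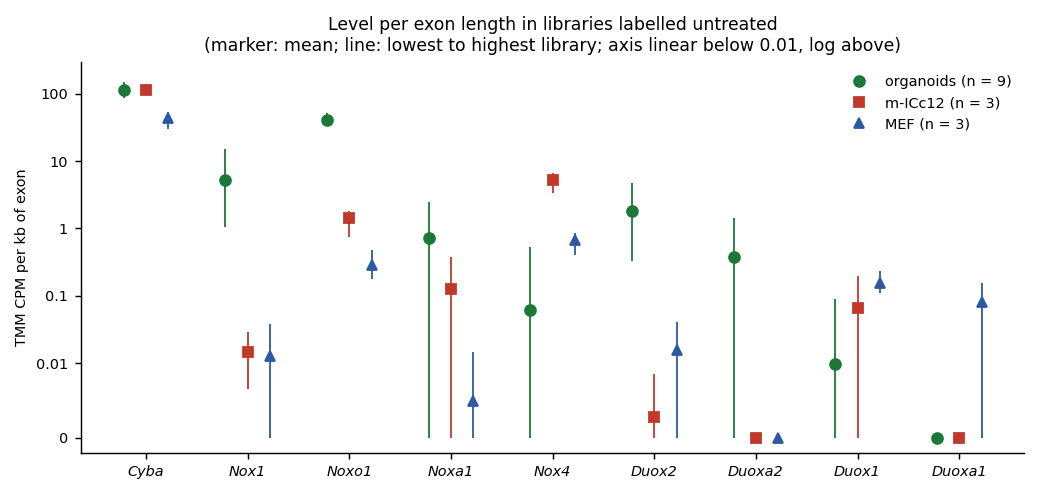
TMM CPM per kb of exon of each member in libraries labelled untreated, on an axis that is linear below 0.01 and logarithmic above, with markers at the means and lines from the lowest to the highest library. By mean, Nox1, Noxo1, Noxa1, Duox2 and Duoxa2 are highest in organoids, Nox4 in m-ICc12 cells, and Duox1 and Duoxa1 in MEFs.

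Cyba had the same mean level, 119 CPM, in organoids and in m-ICc12 cells labelled untreated (SD 19.8 and 25.4), with a log2 difference of 0.01 ± 0.16 (SE, 95% interval −0.32 to 0.35). It was lower in MEFs, at 56.0, 31.0 and 51.5 CPM (46.2 ± 13.3, SD, n = 3), with log2 differences of 1.37 ± 0.19 for organoids and 1.31 ± 0.22 for m-ICc12 cells against MEFs (SE). Both organoid values depend on which library of a pair is taken as untreated: with the treatment exchanged within each pair, the log2 difference of Cyba was −2.09 ± 0.25 against m-ICc12 cells and −1.23 ± 0.25 against MEFs (SE), and that of m-ICc12 cells against MEFs 0.86 ± 0.29. Noxo1 was at 4.29 ± 1.78 CPM in m-ICc12 cells and 0.859 ± 0.507 CPM in MEFs (SD, n = 3 each), against 121 CPM in organoids. Its log2 differences were 4.83 ± 0.28 and 7.09 ± 0.31 (SE), or 4.21 and 6.17 with the treatment exchanged.

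Nox1, Duox2 and Duoxa2 were found mainly in organoids. Nox1 had 4409 counts over the 9 organoid libraries labelled untreated, against 6 over the 3 m-ICc12 libraries and 5 over the 3 MEF libraries, which per normalised depth is 378 times the m-ICc12 level (exact 95% counting interval 174 to 1030) and 402 times the MEF level (172 to 1240). Duox2 had 3058 counts in organoids, 2 in m-ICc12 cells and 12 in MEFs, ratios of 787 (218 to 6500) and 116 (66.4 to 225). Duoxa2 had 139 counts in organoids and 0 in both other types, and was at least 23.9-fold higher than in m-ICc12 cells and at least 21.1-fold higher than in MEFs with 3 counts over the group as the floor. Culture Z917 alone gave 71 of these 139 counts, and without it the bounds were 13.5-fold and 11.9-fold. These ratios, too, rest on the label. With the treatment exchanged, Nox1 had 196 counts in organoids, 16.8 times the m-ICc12 level (5.67 to 82.3) and 17.0 times the MEF level (7.17 to 53.0). Duox2 was then at least 124-fold higher than in m-ICc12 cells and 52.3 times the MEF level (29.8 to 101), and Duoxa2 at least 15.5-fold and 26.2-fold higher. These intervals and bounds cover counting error only. Noxa1 was also highest by mean in organoids labelled untreated, at 1.18 CPM. Its mean was 0.202 CPM in m-ICc12 cells, where only culture 1 had counts (21), and 0.00788 CPM in MEFs. Its organoid range, 0 to 4.06 CPM, overlapped both, and it was not above background in either comparison.

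Nox4 was the member that marked m-ICc12 cells. The dual oxidase pair that was almost silent in organoids was found in MEFs only at low levels, at no more than 1.23 CPM. Nox4 stood at 44.9 ± 14.6 CPM in m-ICc12 cells labelled untreated and at 6.74, 3.43 and 7.16 CPM in MEFs, with a log2 difference of 2.92 ± 0.34 (SE). Against organoids, the level in m-ICc12 cells was 88.8 times higher (74.3 to 107) with all 9 libraries. It was 1630 times higher (749 to 4450) without culture Z908 and 1590 times higher (772 to 3960) with the treatment exchanged. These intervals cover counting error only. In the fit with all 9 libraries, the log2 difference of organoids against m-ICc12 cells was −6.41 ± 1.28 (SE, 95% interval −9.11 to −3.7). Duox1 was at 1.23, 0.650 and 0.572 CPM in MEFs, and in m-ICc12 cells only the library of culture 1 labelled untreated had any counts (36, or 1.04 CPM). Duoxa1 was at 0.615, 0.350 and 0 CPM in MEFs, at least 29.3-fold higher than in organoids labelled untreated and at least 15.1-fold higher than in m-ICc12 cells, where all libraries had 0 counts. With the treatment exchanged it was 7.09 times the organoid level (3.71 to 14.4), since 13 counts of Z909 then enter. It was then at least 7.91-fold higher than in m-ICc12 cells. The interval and bounds of Duoxa1 cover counting error only, too.

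Of the members above background, 4 of 5 were called between organoids and m-ICc12 cells, 6 of 7 between organoids and MEFs and 4 of 5 between m-ICc12 cells and MEFs. Over all genes tested, 60.9%, 67.2% and 59.3% were called in these comparisons, so that calls were the rule and nothing is read from the members' counts. Between organoids and MEFs the count was 9 without culture Z908 and 4 without MEF culture 1, and between m-ICc12 cells and MEFs it was 2 without m-ICc12 culture 2.

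The origin of the organoids was not used to choose the members, so it was tested. The cultures of a facility come from cohoused littermates, so germ-free status cannot be told apart from facility, litter and colony. The p-values and intervals here and in the other comparisons by origin measure only the spread between these cultures. Between GF and SPF organoids labelled untreated, 6 members were above background and 0 were called by edgeR, against 0.0325% of 12315 genes (4 genes), and 1 member (Duox2) had an unadjusted p under 0.05. Duox2 was at 32.6, 11.8 and 14.0 CPM in GF organoids and between 2.23 and 12.9 CPM (median 8.47) in the 6 SPF cultures, so that the groups overlapped. Its log2 difference was 1.20 ± 0.45 (SE, 95% interval 0.26 to 2.15, adjusted p = 1.0), and 0.60 without Z917. With the treatment exchanged, so that the libraries labelled TNF-treated were compared, it was −0.14 ± 0.51. Nox1 was at 50.3, 14.7 and 6.80 CPM in GF and between 3.52 and 21.0 CPM (median 14.9) in SPF organoids, with a log2 difference of 0.80 ± 0.51 (SE, 95% interval −0.29 to 1.88, adjusted p = 1.0), and of −0.36 without Z917. Cyba (−0.12, interval −0.45 to 0.22) and Noxo1 (−0.14, interval −0.45 to 0.17) had the narrowest intervals. DESeq2 also called 0 members in this comparison.

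Between the SPF facilities SE and SR, 4 members were above background and 0 were called by edgeR or DESeq2, with 0 of 12219 genes (0%) called by edgeR, 486 genes and 0 members at an unadjusted p under 0.05, and 8 genes called by DESeq2. Cyba differed by −0.25 (95% interval −0.63 to 0.13), Noxo1 by 0.14 (−0.24 to 0.53), Nox1 by 0.66 (−0.38 to 1.71) and Duox2 by 0.92 (−0.26 to 2.09) on the log2 scale, SE minus SR. All 4 intervals include 0, and those of Nox1 and Duox2 are the widest.

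The difference between the labelled treatments was also compared between GF and SPF organoids, as an interaction. In edgeR 0 of 12640 genes (0%) and 0 of the 6 members above background were called, with 323 genes and 0 members at an unadjusted p under 0.05, and DESeq2 called 1 gene and 0 members. The interval was narrow for Cyba (0.09, 95% interval −0.58 to 0.76) and Noxo1 (−0.06, −0.66 to 0.55) and wide for Nox1 (−0.74, −3.93 to 2.45). Without Z917, the only GF culture with counts of Nox1 under the TNF label, the Nox1 value was −7.32 ± 2.43 (SE, adjusted p = 1.0 in edgeR). Duox2 had the value farthest from 0 in units of its error (−1.34 ± 0.73, SE, 95% interval −2.84 to 0.16, adjusted p = 1.0): means were 19.4 and 6.09 CPM in GF organoids labelled untreated and TNF-treated, against 8.44 and 6.71 CPM in SPF organoids.

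**Figure D4:**
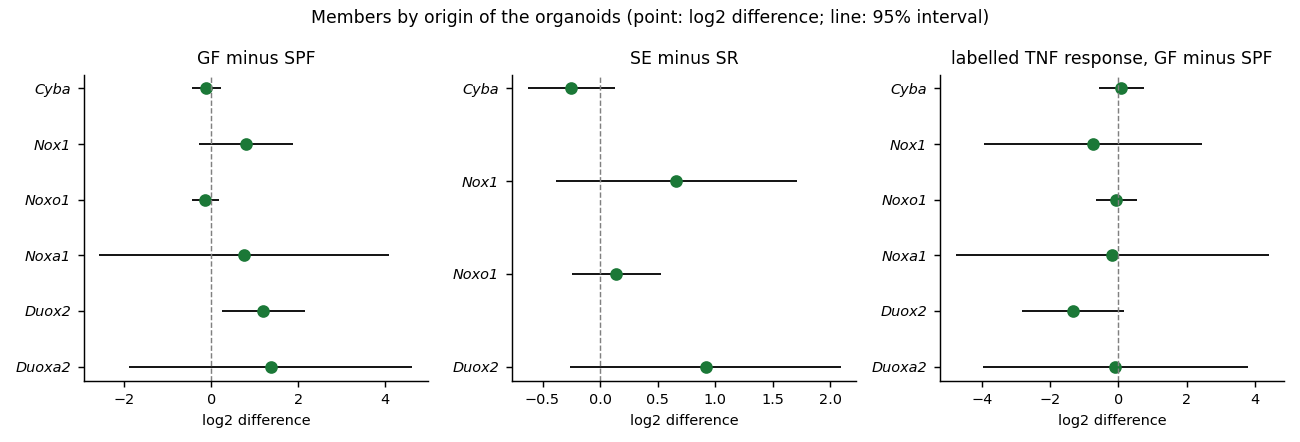
Log2 differences of the members above background, GF minus SPF and SE minus SR in libraries labelled untreated, and the difference of the labelled TNF response between GF and SPF organoids, with lines for the 95% intervals. All intervals but that of Duox2 in GF minus SPF (0.26 to 2.15) include 0.

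Partners of an oxidase did not vary together detectably between cultures. Within a labelled treatment, 5 partner relations had both genes above background over 9 cultures. In libraries labelled untreated, log2 CPM of Nox1 and Noxo1 gave Pearson's r = 0.446 (exact permutation p = 0.228, two-sided) and Spearman's rho = 0.417 (exact permutation p = 0.270), Cyba and Nox1 gave r = −0.388 (exact permutation p = 0.298) and rho = −0.417 (exact permutation p = 0.270), and Cyba and Noxo1 gave r = 0.289 (exact permutation p = 0.452) and rho = 0.383 (exact permutation p = 0.312). In libraries labelled TNF-treated, Duox2 and Duoxa2 gave r = −0.380 (exact permutation p = 0.304) and rho = −0.383 (exact permutation p = 0.312), and Cyba and Noxo1 gave r = 0.321 (exact permutation p = 0.416) and rho = 0.367 (exact permutation p = 0.336). Adjusted over the 5 relations, each Pearson p was 0.452 and each Spearman p 0.336 (exact permutation). Without the 2 cultures farthest from the median, r was 0.536, −0.727, −0.127, −0.247 and 0.0243 in the same order.

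Across all 18 organoid libraries, which include both labelled treatments, the genes with the most similar log2 CPM were found among 12104 genes. For Cyba these were Nfkb2 (r = 0.974), Mreg (0.971) and C3 (0.961), for Nox1 Tgm2 (0.900), Vsig10 (0.891) and Ascl2 (0.883), and for Noxo1 Tgm2 (0.910), Pglyrp1 (0.895) and Casp4 (0.891). Cyba and Noxo1 had r = 0.857 with each other, and Nox1 had r = 0.839 with Cyba and 0.883 with Noxo1. These values carry the difference between the labelled treatments, which the libraries share, so they stand apart from the correlations within a labelled treatment. Duox2 was most like Ctsd (0.771), Capn2 (0.761) and Fgf15 (0.750), Duoxa2 most like Ythdf3 (0.795), Msantd3 (0.795) and Uba6 (0.783), and Noxa1 most like Mrs2 (0.823), Gm42421 (0.775) and Dusp3 (0.767). Duox2 and Duoxa2 had r = −0.130.

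None of the other subunits that complete these enzymes was called between the labelled treatments. Of 12 further NADPH oxidase subunits and partners, 7 were tested in organoids and 0 were called by edgeR or DESeq2 (1 at an unadjusted p under 0.05, median log2 difference 0.03). In m-ICc12 cells 0 of 6 were called by either tool, and 0 had an unadjusted p under 0.05. Ncf1, Ncf4 and Rac2, known from the phagocyte oxidase, were at no more than 0.0329 CPM in the organoid libraries labelled untreated. Rac1, the GTPase of the Nox1 complex, was at 283 to 353 CPM in organoids and lower there than in m-ICc12 cells (log2 difference −0.62 ± 0.09, SE, edgeR adjusted p = 2.1e-05) and MEFs (−0.59 ± 0.08, SE, edgeR adjusted p = 1.0e-05). P4hb was lower in m-ICc12 cells than in organoids (log2 difference 0.85 ± 0.10, SE, edgeR adjusted p = 1.4e-06), and Cybc1, the chaperone of the phagocyte oxidase heterodimer, had a log2 difference of −0.26 ± 0.15 (SE) between the labelled treatments in organoids and did not pass.

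**Figure D5:**
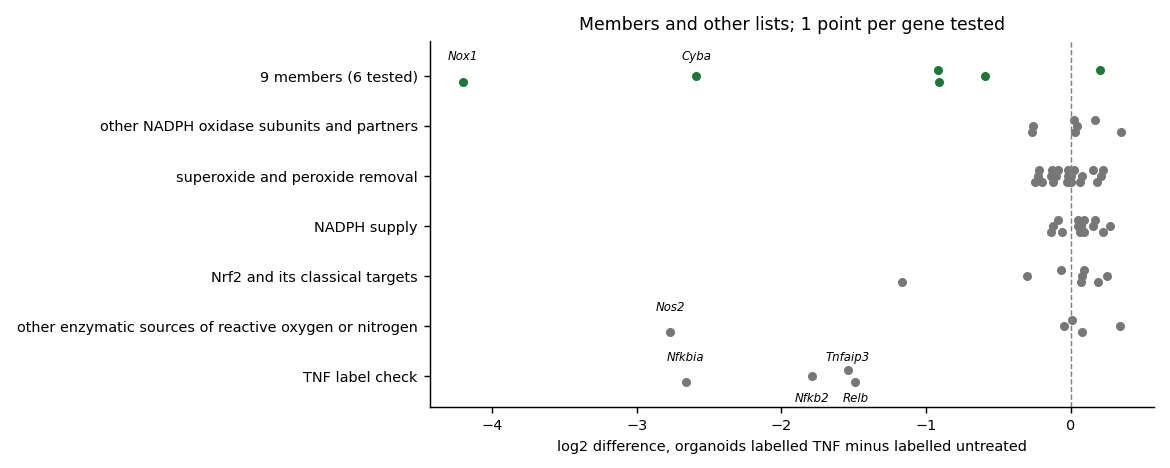
Log2 differences between organoid libraries labelled TNF-treated and untreated, 1 point per gene tested, for the members, other lists of the pathway and the NF-kappaB targets used to check the labels. Genes below −1.4 are named, and only Nos2 of the lists other than the members and the label check lies there.

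Genes that remove superoxide and peroxide were called by label only in the fit that pairs libraries of a culture, and then by small differences. Genes that supply NADPH were not called by label with or without the pairing. Without the pairing, between the labelled treatments, 0 of 21 genes of peroxide and superoxide removal, 0 of 14 genes of NADPH supply and 0 of 8 genes of Nrf2 and its classical targets were called in organoids by edgeR or DESeq2, with 4, 0 and 1 genes at an unadjusted p under 0.05 and median log2 differences of −0.02, 0.07 and 0.08. With the culture as a block, 2 of the 21 genes of peroxide and superoxide removal were called, Gpx2 at −0.23 ± 0.05 (SE, edgeR adjusted p = 0.0021) and Gsr, the glutathione reductase, at 0.22 ± 0.05 (SE, edgeR adjusted p = 0.0039), and 0 of the 14 and 0 of the 8, with 4 and 2 at an unadjusted p under 0.05. The 7 other oxidase subunits had 0 calls under the block too, with 1 at an unadjusted p under 0.05. Among other enzymatic sources of reactive oxygen or nitrogen, 1 of 5 was called: Nos2, the inducible nitric oxide synthase, was at 11.1 to 35.6 CPM in libraries labelled untreated and at 0.688 to 9.69 CPM in those labelled TNF-treated (log2 difference −2.77 ± 0.41, SE, edgeR adjusted p = 0.00011). The groups did not overlap. In m-ICc12 cells 0 of 23, 14, 8 and 4 genes of the same lists were called by edgeR or DESeq2, with 1, 0, 0 and 1 at an unadjusted p under 0.05. With the block 0 were called there, with 2, 0, 0 and 1 at an unadjusted p under 0.05.

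Of 23 genes of superoxide and peroxide removal, 8 were higher and 9 lower in organoids than in m-ICc12 cells (median log2 difference −0.07), and 12 were higher and 6 lower than in MEFs (0.71). With 60.9% and 67.2% of all genes called, nothing is read from these counts or from those of the other lists, and single genes are given as values. Gpx2, the gastrointestinal glutathione peroxidase, was at 592 to 834 CPM in organoids and at most 1.74 CPM in m-ICc12 cells and 1.06 CPM in MEFs (log2 differences 9.22 ± 0.34 and 9.65 ± 0.21, SE). Gpx3, the secreted form, was at 1650 to 2490 CPM in m-ICc12 cells and at most 5.14 CPM in organoids (−9.87 ± 0.48, SE). The peroxidase Pxdn, which uses hydrogen peroxide to crosslink basement membrane collagen, was at 157 to 176 CPM in m-ICc12 cells, 280 to 365 CPM in MEFs and at most 1.62 CPM in organoids, and Lpo and Mpo had 0 counts in the libraries labelled untreated. Among other sources, 4 were higher and 1 lower of 6 in organoids than in m-ICc12 cells, and 5 higher and 0 lower of 6 than in MEFs. Nos2 and Maob, a mitochondrial monoamine oxidase that releases peroxide, were at least 11.1 and 22.9 CPM in each organoid library labelled untreated and at most 0.0579 and 0.191 CPM in m-ICc12 cells and MEFs.

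For the genes that supply NADPH, 6 were higher and 6 lower of 14 in organoids than in m-ICc12 cells, and 5 higher and 4 lower than in MEFs. Idh1, the cytosolic isocitrate dehydrogenase, was lower in organoids than in m-ICc12 cells and higher than in MEFs (log2 differences −1.89 ± 0.15 and 2.01 ± 0.16, SE). Of Nrf2 and its targets, 3 were higher and 4 lower of 8 in organoids than in m-ICc12 cells, and 4 higher and 1 lower than in MEFs. Hmox1, the inducible heme oxygenase, was lower in organoids than in both (−2.62 ± 0.40 and −2.46 ± 0.41, SE).

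By origin of the organoids, 1 gene of these lists was called. Nnt, the mitochondrial transhydrogenase that makes NADPH, was at 185, 258 and 259 CPM in GF organoids and between 86.8 and 122 CPM in the 6 SPF cultures, with a log2 difference of 1.28 ± 0.14 (SE, edgeR adjusted p = 0.00024). The groups did not overlap, and none of the 9 oxidase genes was called in this comparison. Germ-free status, facility, litter and the genetic background of the colony cannot be told apart here, and their parts in the Nnt difference were not tested.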

How the data were processed

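RNA was enriched for poly-A and sequenced single-end in 27 libraries. Per the study's methods, reads were checked with FastQC, trimmed with Trimmomatic and aligned to GRCm38 with STAR; the submitters' processing notes name bcl2fastq 2.19 and STAR 2.5.4b. Methods and notes differ in the STAR version and in the counter (GenomicRanges and featureCounts), and strand use in counting is not given in the sources used here. The authors deposited raw counts for 22524 genes per library, of which 22214 identifiers were found in GENCODE vM21, used for symbols, positions and exon lengths.

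Groups follow the sample labels. Genes with at least 10 counts in 50% of the libraries of 1 group of the comparison were tested, TMM factors were computed and edgeR 4.0.16's quasi-likelihood F-test was applied (R 4.3.3), with Benjamini-Hochberg adjustment over all genes tested and a threshold of 0.05. DESeq2 1.42.0 was an alternative. Levels are TMM CPM, log2 CPM used a prior count of 2, and intervals of log2 differences use the fit's own degrees of freedom. The procedures were tested on simulated data. SciPy 1.17.1 (with pandas 2.3.3 and numpy 2.4.6, under Python 3.11.15) gave exact permutation tests, counting intervals and RefSeq promoter searches. The labels name no separate animals for the m-ICc12 and MEF cultures, so their p-values measure only the spread between these samples.

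Libraries with the same organoid culture number come from the same mouse. Their deviations from the group means correlated at a mean r of 0.173 (0.0773 to 0.292), against −0.021 between cultures, and those of m-ICc12 cultures at 0.0311 (−0.00663 to 0.0926), against −0.0153.

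The members, the gene lists and the tests were chosen with earlier results of these data known. Named genes are all members, up to 3 genes with the smallest p among those called in each other list and comparison, any other NADPH oxidase subunit, the 4 genes of the label check, and the 3 genes most like each member. Stem cell, other cell type and overlapping genes are named in addition as checks. Alternatives were DESeq2, no count filter, the culture as a block, facility as a covariate, 1 fit of all libraries, exchanged treatments and leaving out each culture. Of 119 list genes, 118 were found. Some list genes that the rule would name are not reported here.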

Additional observations from a re-analysis of the deposited data

Results flagged for a closer look

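In groups of 9 organoid libraries with the same labelled treatment, 7 of 17 groups held 1 library whose gap to the nearest other library exceeded 0.493 of the whole range of the group (Dixon's 95% critical value for 9 libraries). For normally distributed values chance gives about 1 in 20 groups. That rate does not apply to the groups of Nox4, Duox1 and Duoxa1, in which most libraries had 0 counts, so the 7 of 17 is not set against it. Outside these genes, the only such groups were Nox1 and Duox2 labelled untreated and Noxo1 labelled TNF-treated.

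Among libraries labelled untreated, Nox1 stood at 50.3 CPM in Z917, with the others at 3.52 to 21.0 CPM, and Duox2 at 32.6 CPM in the same library, with the others at 2.23 to 14.0 CPM. This GF library also held the highest levels of Noxa1 (4.06 CPM) and Duoxa2 (2.25 CPM) in the group, while its Cyba (95.9 CPM) and Noxo1 (119 CPM) lay within the range of the others. Nox4 stood at 4.46 CPM in Z908, with the others at 0 to 0.0951 CPM, and Duox1 at 0.468 CPM in Z918, with 0 counts in the others.

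Among libraries labelled TNF-treated, Noxo1 stood at 112 CPM in Z911, with the others at 44.2 to 74.1 CPM. This library had 11440041 counts, the lowest total of the organoid libraries. Duox1 stood at 0.717 CPM in Z908, with the others at 0 to 0.0403 CPM, and Duoxa1 at 0.391 CPM in Z909, with 0 counts in the others. The causes of these values were not tested.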

How the results depend on the processing

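Over all alternatives other than leaving out a culture, 196 of the values compared were classed as the same as in the main fit, 21 as moved and 4 as reversed. These classes do not follow direction and call alone. Between the labelled organoid treatments, Noxa1 went from −0.59 ± 0.97 to 0.03 ± 1.43 (SE) with the culture as a block and was classed as the same. Nox1 went from −4.2 to −5.1 there, kept its direction and call, and was classed as moved. With single cultures left out, 460 stayed, 25 moved and 16 reversed. The causes were not tested. The number of members called between labelled organoid treatments was 3 in every alternative.

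With the culture as a replicate block, 397 genes were called between the labelled organoid treatments (168 without the block) and 6 in m-ICc12 cells (13 without), and the Noxa1 interaction reversed to 1.14. The block changed no member's call, and the calls it changed in other lists stand beside them. In m-ICc12 cells DESeq2 called 46 genes, the table of all genes with a count 30, the fit of all libraries 35, and leaving out a culture gave 15 to 93, the highest without replicate 2. Between GF and SPF organoids DESeq2 called 21 genes and leaving out a culture gave 2 to 5, and in the interaction DESeq2 called 1. Between SE and SR, DESeq2 called 8 genes, the table of all genes 5, exchanged treatments 1, and leaving out a culture gave 0 to 35, the highest without Z909.

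With exchanged treatments the log2 difference of Duox2 between GF and SPF organoids was −0.14, and that of Cyba in organoids −2.09 against m-ICc12 cells and −1.23 against MEFs. Between m-ICc12 cells and MEFs, 2 members were called in the fit of all libraries, and 2 to 4 when a culture was left out. Without 1 culture the organoid label difference gave 136 to 164 genes, organoids against MEFs 4 to 9 members and organoids against m-ICc12 cells 4 to 5.

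Log2 differences that changed sign without 1 culture, whichever class they were given, ranged as follows. In the interaction, Noxa1 ranged from −0.76 to 1.68, Duoxa2 from −0.96 to 1.69, Noxo1 from −0.23 to 0.07 and Cyba from −0.30 to 0.36. Between GF and SPF organoids, Nox1 ranged from −0.36 to 1.23, Noxa1 from −1.24 to 1.39 and Duoxa2 from −0.07 to 2.49, and between SE and SR Noxo1 from −0.00 to 0.30. Duoxa2 ranged from −0.12 to 0.89 between the labelled organoid treatments, and in m-ICc12 cells Nox4 from −0.21 to 0.58 and Noxo1 from −0.86 to 0.53. Nox1 in the interaction ranged from −7.32 to −0.33 without changing sign. Depth limits Duox1, Duoxa1 and Nox4 in organoids, where most libraries were at or under the floor of 3 counts, and Noxa1 and Duoxa2, with at most 128 and 71 counts in a library.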
